A study of Homo sapiens with 12 samples.

Results

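The comparison described here set wild-type A375 cells kept for 48 h with 500 nM JQ1 (3 libraries) against wild-type A375 cells kept for 48 h with DMSO, the solvent control (3 libraries). These 6 libraries, of 12 in the study, were chosen by their genotype and treatment labels. A375 is an established human cell line from a malignant melanoma of the skin. The other 6 libraries came from A375 cells with MAPKAPK2 knocked out by CRISPR/Cas9 (MAPKAPK2 encodes the stress-activated kinase MK2), 3 with 500 nM JQ1 and 3 with DMSO for 48 h; they are set beside the wild-type values where this is said. Titles and treatment fields disagree on the controls, untreated in the former and DMSO in the latter, and the latter was used here. Whether the knockout cells were a single clone, and whether the replicates of a group were separate cultures, is not given in the sources used here, so the p-values measure only the spread between these samples, which may be technical. RNA depleted of ribosomal RNA was sequenced, and the 6 wild-type libraries held between 26559043 and 34594295 estimated counts.

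The bromodomain and extra-terminal (BET) proteins, such as BRD2 and BRD3, bind acetylated lysines of histones and bring elongation factors, such as the kinase complex P-TEFb, to genes that are being transcribed. JQ1 is a small molecule that occupies their bromodomains and displaces them from chromatin. HEXIM1, an inhibitor of P-TEFb, is widely used as a transcript that rises when BET proteins are blocked, and MYC as a transcript that falls in many blood cancers.

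The labelled lineage was checked first, in CPM (counts per 1000000 counts of a library) of the unscaled libraries. The neural crest factor SOX10 had a mean of 462 CPM in DMSO and 545 CPM in JQ1, the melanocyte regulator MITF 45.6 and 38 CPM, and S100B 31 and 35.5 CPM. The pigment cell genes PMEL and MLANA had means at or below 1.05 CPM, and the pigment enzymes TYR, TYRP1 and DCT means at or below 0.247 CPM. These cells thus held the lineage factors, while the pigmentation markers were near 0. Among markers of other cell types, the 6 keratinocyte markers summed to 6.04 to 7.49 CPM in DMSO and 4.93 to 5.27 CPM in JQ1, with KRT1 and IVL at 0 in all 6 libraries. The 6 leukocyte markers summed to 2.25 to 2.64 CPM in DMSO and 1.69 to 1.81 CPM in JQ1. The 6 endothelial markers summed to 11.7 to 13.9 CPM in DMSO and 11.9 to 13.2 CPM in JQ1, most of it KDR. The 6 fibroblast markers summed to 24 to 24.7 CPM in DMSO and 14.1 to 16.1 CPM in JQ1, with means of COL1A1, DCN and LUM at or below 4.09 CPM and of COL1A2 at or below 0.1 CPM.

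edgeR's quasi-likelihood test covered 21698 genes, of which 3665 (16.9%) were higher and 3522 (16.2%) lower with JQ1 at a Benjamini-Hochberg adjusted p of 0.05. These percentages, over all tested genes, are the background set beside the lists below. The lists by function hold mainly protein-coding genes, which were called more often: 23.1% of them were higher and 19.2% lower. In classes 3 to 5 of 5 equal classes of protein-coding genes by DMSO level (5 the highest), 28.5% to 30.6% were higher and 17.4% to 19.3% lower. Lists were not compared with genes of matched type and level, so a share above the background can reflect these alone. Changes of at least 2-fold leaned to loss: 1084 genes (5%) were called at least 2-fold lower and 329 (1.52%) at least 2-fold higher. The balance changed with the scaling of libraries: with library totals in place of TMM factors, 2298 genes were higher and 5368 lower, and the median log2 fold change of all genes moved from -0.03 to -0.16. The 4 abundant noncoding transcripts (RMRP, RN7SK, RN7SL1 and RN7SL2) took 9.42% to 9.76% of the counts in DMSO and 10.6% to 11.7% in JQ1. Without them and the mitochondrial transcripts 3664 genes were higher and 3519 lower.

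**Figure D1:**
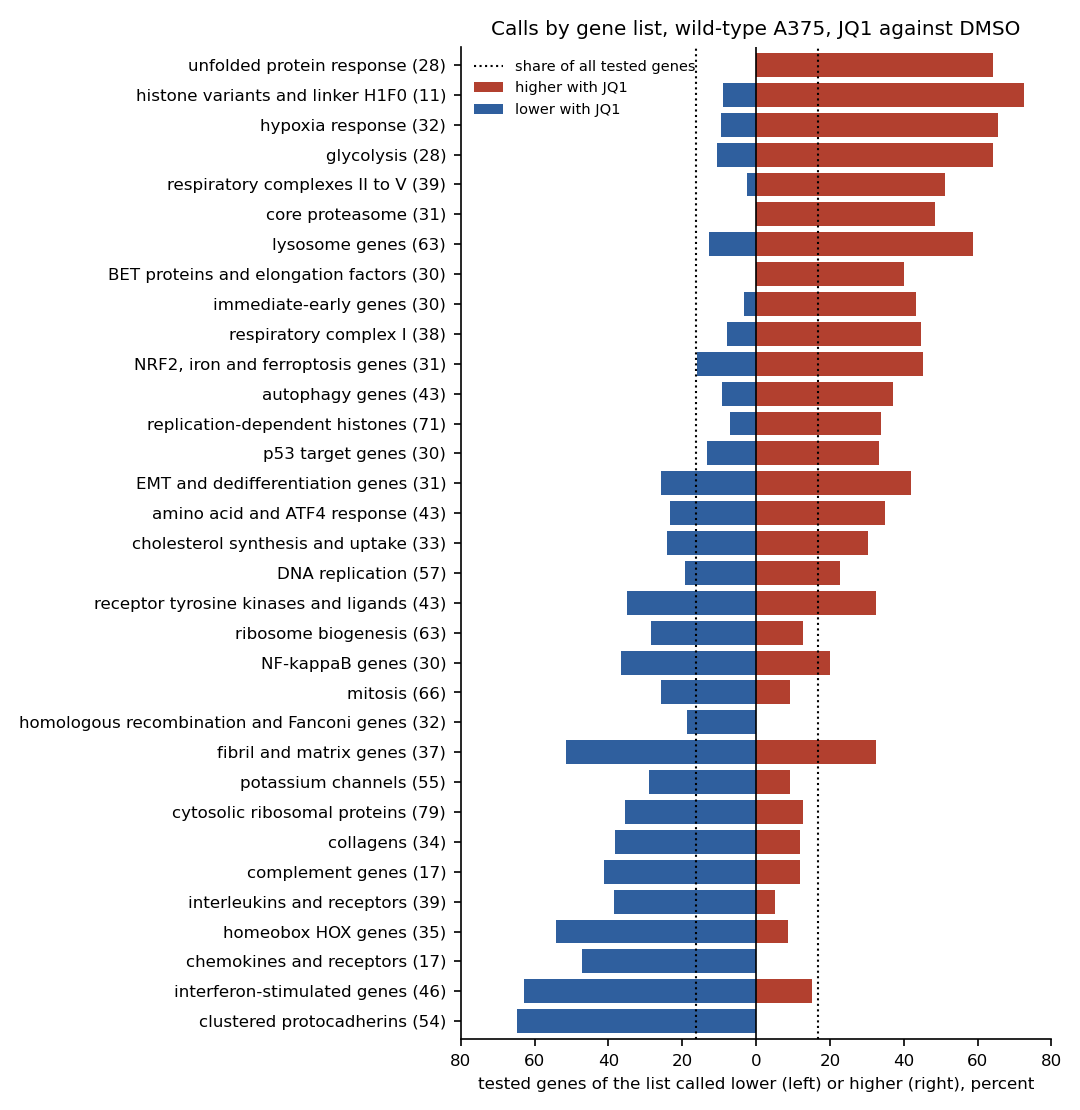
Share of the tested genes of 33 gene lists called higher (right) or lower (left) with JQ1 at an adjusted p of 0.05; the number of tested genes is in parentheses and dotted lines give the shares of all tested genes, 16.9% and 16.2%. The unfolded protein response, hypoxia and glycolysis lists extend to the right, and the clustered protocadherins and interferon-stimulated genes to the left.

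Lists of genes by function were written from general knowledge but with earlier results of these data known, so their shares are description only. Each is described by how many of its tested members were called, and by its median log2 fold change. That median is -0.03 over all tested genes. In the plot of called shares by list, the hypoxia, glycolysis, unfolded protein response and lysosome lists had 58.7% to 65.6% of their tested members higher, and the interferon-stimulated genes, clustered protocadherins and HOX genes had 54.3% to 64.8% lower. Per library, the median of all tested genes against the DMSO mean lay at -0.02, -0.03 and -0.02 in the 3 JQ1 libraries.

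The P-TEFb inhibitor rose, and of the BET genes described here BRD2 passed the test and BRD3 did not. HEXIM1 was at 92.5, 89.1 and 92.8 CPM in the DMSO libraries and at 165, 157 and 152 CPM in the JQ1 libraries. The groups did not overlap, and the log2 fold change was 0.79 (SE 0.06, edgeR adjusted p 4.11e-07). BRD2 was at 45.1, 42.7 and 45.3 CPM in DMSO and at 53.8, 52.4 and 51.7 CPM in JQ1, a rise of 0.24 on the log2 scale (SE 0.07, edgeR adjusted p 0.0204) that was lost with library totals (0.12, edgeR adjusted p 0.245) and without wild-type DMSO replicate 2, JQ1 replicate 1 or JQ1 replicate 2 (edgeR adjusted p 0.0515 to 0.0743). BRD3 (log2 fold change -0.09, SE 0.08, edgeR adjusted p 0.418) did not pass the test, and its groups overlapped. Of 30 tested BET and elongation genes, 12 (40%) were higher and none lower, with a median of 0.20; with library totals 6 were higher and 5 lower. The rises included MLLT3, a subunit of the super elongation complex (0.48), the elongation factor SUPT6H (0.32) and the pausing factor NELFB (0.40).

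MYC was low in these cells, at 10.3, 10.5 and 10.9 CPM in DMSO and at 9.2, 9.8 and 9.7 CPM in JQ1. Its log2 fold change of -0.14 (SE 0.11) did not pass the test (edgeR adjusted p 0.352), although the 3 JQ1 libraries lay below the 3 DMSO libraries. Among 11 tested genes of the MYC network, 2 were higher and 1 lower: the MAX partners MXD1 (0.55) and MXD4 (0.55) rose, and MXI1, another MAX partner, fell by 0.19 on the log2 scale, a call lost under 7 of 22 alternatives, among them without any 1 of the wild-type DMSO libraries or JQ1 replicate 1 or 3 (edgeR adjusted p 0.0533 to 0.0909). The median of that list was -0.02, and 0.08 with offsets for GC content and length.

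Cell cycle genes differed by role. Of 16 tested G1 cyclins, kinases and inhibitors 7 (43.8%) were higher and 3 (18.8%) lower. CDKN1A, which encodes the CDK inhibitor p21, was at 57.7, 55.8 and 59.5 CPM in DMSO and at 148, 155 and 142 CPM in JQ1, a 2.58-fold rise (log2 1.36, SE 0.06, edgeR adjusted p 1.55e-09). Cyclin D1, CCND1, was at 320.3, 350.2 and 347 CPM in DMSO and at 560.4, 559.5 and 544 CPM in JQ1 (log2 0.71, SE 0.05, edgeR adjusted p 1.56e-07). CDKN2D, the CDK inhibitor p19, rose by 0.91 and CDK2 by 0.51, while CDK6, the partner of D-type cyclins, fell by 0.66 on the log2 scale. Transcripts of an inhibitor and of a cyclin of the same step were thus both higher.

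Of 66 tested mitosis genes, 6 (9.09%) were higher and 17 (25.8%) lower, with a median of -0.14. With library totals 3 were higher and 36 lower, and with offsets for GC content and length 9 and 25. The median was -0.13, -0.16 and -0.10 in the 3 JQ1 libraries. KIF14, a cytokinesis kinesin, fell from 157, 159 and 154 CPM in DMSO to 97.9, 102 and 103 CPM in JQ1 (log2 -0.63, SE 0.11, edgeR adjusted p 0.000335). The checkpoint kinase BUB1B (-0.39), the kinesin KIF20A (-0.32) and the phosphatase CDC25C (-0.47) were lower, and the anaphase activator CDC20 (0.38) was higher. The 57 DNA replication genes were divided, with 13 higher and 11 lower and a median of 0.03; with library totals 8 were higher and 21 lower, and the median was -0.10. The nucleotide enzyme TK1 (0.62) and the sliding clamp PCNA (0.45) rose, and the activator E2F2 (-1.01), the polymerase subunit POLE2 (-0.92) and the primase PRIM1 (-0.43) fell. Among 32 tested genes of homologous recombination and the Fanconi pathway none was higher and 6 (18.8%) were lower, a share near the 16.2% of all genes; RAD51AP1 (-0.89), RAD51D (-0.50, but -0.35 with a limma adjusted p of 0.0918 in the authors' signal), MRE11 (-0.49) and FANCD2 (-0.36) were among them, and with offsets for GC content and length 4 were higher and 8 lower.

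The p53 target list was divided. Of 30 tested members, 10 (33.3%) were higher and 4 (13.3%) lower, with a median of 0.12; with library totals 6 were higher and 8 lower, and the median was -0.01. CDKN1A rose, as did SERTAD1 (1.37), the oxidoreductase TP53I3 (0.80) and the polo-like kinase PLK3 (1.33). MDM2, which encodes the ubiquitin ligase of p53, fell from 125, 131 and 129 CPM in DMSO to 95.9, 100.3 and 101 CPM in JQ1 (log2 -0.37, SE 0.05, edgeR adjusted p 7.81e-05). Of 16 tested BCL2 family genes, 4 were higher and 1 lower, including the survival gene MCL1 (0.41) and the death-promoting BCL2L11, which encodes BIM (0.59); with library totals 2 of the family were higher and 4 lower.

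Immediate-early genes, whose products include the AP-1 transcription factors, had more higher than lower calls after 48 h. Of 30 tested, 13 (43.3%) were higher, 1 lower and 16 not called (11 higher and 4 lower with library totals), with a median of 0.29 and JQ1 library medians of 0.34, 0.36 and 0.22. FOS was at 10.1, 9.74 and 10 CPM in DMSO and at 19.2, 20 and 18.4 CPM in JQ1 (log2 0.95, SE 0.09, edgeR adjusted p 1.44e-06). JUN (1.08), IER5 (0.90) and the matricellular gene CTGF (1.48) also rose. The nuclear receptor NR4A2 went the other way, from 28.9, 29.6 and 30.4 CPM to 12.3, 11.7 and 12.1 CPM (log2 -1.30, SE 0.07, edgeR adjusted p 1.18e-08). Of 20 output genes of the ERK pathway, which is driven by BRAF in many melanomas, 7 (35%) were higher and 2 lower, with a median of 0.13, and -0.00 with library totals. They included the phosphatases DUSP4 (0.54) and DUSP5 (0.60) and the AP-1 subunit FOSL1 (0.81), while the pathway inhibitor SPRY1 fell by 0.68 on the log2 scale.

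Most histone genes outside the S-phase clusters were higher. These genes encode replacement histones and the linker histone of resting cells. Of 11 tested, 8 (72.7%) were higher and 1 lower, with a median of 0.52 and JQ1 library medians of 0.56, 0.51 and 0.50. H1F0 was at 198, 201 and 206 CPM in DMSO and at 459.7, 456 and 443 CPM in JQ1, a 2.25-fold rise (log2 1.17, SE 0.06, edgeR adjusted p 3.53e-09). H2AFX (0.84), H2AFV (0.63) and H3F3B (0.52) rose, and H2AFY2, which encodes a macroH2A, fell by 1.20 on the log2 scale. Of 71 tested replication-dependent histone genes, 24 (33.8%) were higher and 5 (7.04%) lower, with a median of 0.13 that became -0.00 with library totals. Single members differed: HIST2H4B (1.74) and HIST4H4 (0.59) rose, and HIST1H4I, at 115, 128 and 123 CPM in DMSO and 74, 80.6 and 67.2 CPM in JQ1, fell (log2 -0.72, SE 0.09, edgeR adjusted p 2.07e-05). These genes are near-identical copies, so reads can be split among them, and single members are uncertain.

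The hypoxia response is the set of genes switched on by the HIF transcription factors, many of them for glucose uptake and glycolysis. It had 32 tested members of 33 listed, of which 21 (65.6%) were higher and 3 (9.38%) lower, with a median of 0.55. The JQ1 library medians were 0.51, 0.52 and 0.43, and those of the DMSO libraries, each against the other 2, were -0.03, -0.03 and 0.03. ANGPTL4, a secreted inhibitor of lipoprotein lipase, was at 3.13, 3.82 and 3.27 CPM in DMSO and at 34.4, 31.1 and 32.3 CPM in JQ1, a 9.59-fold rise (log2 3.26, SE 0.15, edgeR adjusted p 1.66e-09). NDRG1 (0.94) and the collagen hydroxylase P4HA2 (0.87) rose. The hypoxia marker CA9 did not: it was at 12.9, 11.3 and 16.2 CPM in DMSO and at 9.67, 10.6 and 9.64 CPM in JQ1 (log2 -0.44, SE 0.21, edgeR adjusted p 0.138). HIF1A itself was higher (0.55), and so were EPAS1 (1.28), VEGFA (0.76) and BNIP3 (0.69); these 4 and CA9 were chosen after their values were seen. The glycoprotein hormone STC2 fell by 0.80 on the log2 scale.

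Glycolysis genes, some of which are also in the hypoxia list, were mostly higher. Of 28 tested genes, 18 (64.3%) were higher and 3 (10.7%) lower, with a median of 0.39. GAPDH, often used as a constant reference transcript, was at 3756, 3715 and 3710.4 CPM in DMSO and at 8050, 8078 and 7951 CPM in JQ1. That is a 2.15-fold rise (log2 1.11, SE 0.04, edgeR adjusted p 7.37e-11). PFKFB4, which sets the level of the glycolytic activator fructose-2,6-bisphosphate, rose 3-fold, from 54.1, 56.2 and 54.6 CPM to 167, 173 and 155 CPM (log2 1.58, SE 0.11, edgeR adjusted p 5.72e-08). The isomerase TPI1 (0.81), ENO2 (0.97) and the glucose transporter SLC2A1 (0.87) were higher. PFKFB2 (-0.58) and the pyruvate dehydrogenase kinase PDK2 (-0.40) were lower.

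Mitochondrial respiration genes changed by small amounts. Of 38 tested complex I genes, 17 (44.7%) were higher and 3 lower, with a median of 0.17, and of 39 genes of complexes II to V, 20 (51.3%) were higher and 1 lower, with the same median. With library totals the counts were 10 higher and 9 lower for complex I, and 8 higher and 9 lower for complexes II to V. NDUFB2 was at 40.8, 40 and 42.7 CPM in DMSO and at 74.4, 69 and 69 CPM in JQ1 (log2 0.78, SE 0.06, edgeR adjusted p 3.31e-07), and COX6A1 rose by 0.68. COX6C was the lower member among complexes II to V (-0.41), and its response differed between the genotypes. Of 75 mitochondrial ribosomal proteins, 17 (22.7%) were higher and 11 (14.7%) lower, and 7 and 25 with library totals.

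The unfolded protein response, which raises chaperones and export factors of the endoplasmic reticulum, had calls in a single direction. Of 28 tested genes 18 (64.3%) were higher and none lower, with a median of 0.39; with library totals 14 were higher and none lower. The JQ1 library medians were 0.37, 0.39 and 0.35. HSPA5, the main chaperone BiP, was at 594, 579 and 598 CPM in DMSO and at 809, 824 and 802 CPM in JQ1 (log2 0.46, SE 0.04, edgeR adjusted p 1.17e-06). HYOU1 was at 255, 248 and 251 CPM in DMSO and at 436, 426 and 390.2 CPM in JQ1 (log2 0.73, SE 0.07, edgeR adjusted p 1.17e-06). The oxidase ERO1B (0.66) and the disulfide isomerase PDIA4 (0.58) rose. XBP1, at 0.06 (SE 0.07, edgeR adjusted p 0.526), did not pass the test; it was chosen after its values were seen.

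The endoplasmic reticulum stress element, CCAAT and CCACG separated by 9 bases, on either strand, was looked for in the 250 bases before the RefSeq start of 12629 tested genes with a window. It was found in 15 of them (0.119%) and in 7 of the 26 unfolded protein response genes with a window (26.9%), namely 4 of 17 higher members (23.5%) and 3 of 9 that were not called (33.3%). The 200 bases before the start of 2 higher members show it in capitals. HSPA5 is at chr9:125241344-125241543 on the minus strand and CANX, which was higher by 0.20 (a call lost under 6 of 22 alternatives, with edgeR adjusted p up to 0.455 with library totals and 0.0562 to 0.0908 without any 1 of the DMSO libraries or JQ1 replicate 2 or 3) and was chosen after its values were seen, at chr5:179698729-179698928 on the plus strand (GRCh38.p14).
HSPA5: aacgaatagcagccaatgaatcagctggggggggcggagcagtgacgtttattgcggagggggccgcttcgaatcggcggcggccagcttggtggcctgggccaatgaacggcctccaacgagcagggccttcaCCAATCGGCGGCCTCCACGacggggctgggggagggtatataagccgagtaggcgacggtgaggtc
CANX: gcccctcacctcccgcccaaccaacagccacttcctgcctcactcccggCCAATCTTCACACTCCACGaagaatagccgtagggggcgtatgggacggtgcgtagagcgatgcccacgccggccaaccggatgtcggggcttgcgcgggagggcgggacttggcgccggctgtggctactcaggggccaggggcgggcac
The element starts 66 bases before the start of HSPA5 and 151 bases before that of CANX. A match is a description of the sequence and not of a factor bound there.

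Lysosomal genes encode the acid hydrolases, membrane proteins and proton pump of the degradative compartment. Of 63 tested, 37 (58.7%) were higher and 8 (12.7%) lower, with a median of 0.27 and JQ1 library medians of 0.28, 0.28 and 0.26. CTSL, which encodes the protease cathepsin L, was at 53.1, 52.7 and 52.1 CPM in DMSO and at 89.9, 89.5 and 91.5 CPM in JQ1 (log2 0.78, SE 0.05, edgeR adjusted p 9.37e-08). The sulfatase IDS (0.85) and the membrane protein CD63 (0.64) rose. The proton pump split by part, a division made after the values were seen: all 5 tested subunits of its membrane sector V0 were higher, by 0.65 to 0.73, while of 8 subunits of the outer sector V1, 5 were higher and 2 lower, between -0.24 and 0.43. Cathepsins were divided, with 4 of 11 higher and 5 lower; CTSK, the collagen-cutting cathepsin K, fell by 1.28 on the log2 scale. Other degradation genes had smaller medians. Of 43 tested autophagy genes 16 (37.2%) were higher and 4 lower, led by the cargo receptor SQSTM1 (0.71), and of 31 proteasome genes 15 (48.4%) were higher and none lower, led by PSMD2 (0.60); with library totals these counts were 8 against 7 and 9 against 3.

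Ferritin genes and PGD, an enzyme of the pentose phosphate pathway, rose within the NRF2, iron and ferroptosis list, of which 14 (45.2%) of 31 tested genes were higher and 5 (16.1%) lower. Its calls of at least 2-fold went the other way, with 2 members higher and 4 lower. The ferritin heavy chain FTH1 was at 226, 225 and 230.3 CPM in DMSO and at 540, 513 and 496 CPM in JQ1 (log2 1.19, SE 0.05, edgeR adjusted p 1.59e-09), and the light chain FTL rose by 0.88. PGD rose from 139, 135 and 148 CPM to 241, 239 and 232 CPM (log2 0.75, SE 0.05, edgeR adjusted p 9.11e-08). The cystine transporter SLC7A11 fell from 73.6, 75.4 and 68.2 CPM to 22.7, 23.8 and 24.2 CPM (log2 -1.62, SE 0.10, edgeR adjusted p 3.39e-08). In the knockout SLC7A11 fell by 2.55 on the log2 scale, and the difference between the genotypes passed the interaction test (-0.93, edgeR adjusted p 0.0208), as it did under 12 of 21 alternatives. SLC7A11 also belongs to the amino acid and ATF4 list, where 15 (34.9%) of 43 genes were higher and 10 (23.3%) lower, and 11 and 16 with library totals. In that list the neutral amino acid transporter SLC1A4 (0.99), DDIT4 (0.81) and the asparagine synthetase ASNS (0.60) rose, and the folate enzyme ALDH1L2 (-1.03) and the leucyl-tRNA synthetase LARS (-0.73) fell.

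Sterol genes went both ways. Of 33 tested cholesterol genes, 10 (30.3%) were higher and 8 (24.2%) lower, and 4 and 11 with library totals. HMGCS1, an early enzyme of cholesterol synthesis, fell from 45.8, 43.2 and 42.9 CPM to 31.7, 28.7 and 29.2 CPM (log2 -0.56, SE 0.08, edgeR adjusted p 9.42e-05), and the regulator SREBF2 fell by 0.48. The exporter ABCA1 (0.63) and the synthase LSS (0.58) rose.

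Interferon-stimulated genes encode antiviral proteins and are switched on by STAT and IRF transcription factors. Of 46 tested of 53 listed, 29 (63%) were lower and 7 (15.2%) higher, with a median of -0.57 and JQ1 library medians of -0.54, -0.56 and -0.55. OAS2, a sensor of double-stranded RNA, was at 10.9, 10.3 and 11.8 CPM in DMSO and at 1.95, 2.08 and 2.22 CPM in JQ1, a 5.29-fold loss (log2 -2.40, SE 0.11, edgeR adjusted p 1.66e-09). PARP14 was at 114, 108 and 108 CPM in DMSO and at 54.5, 54.6 and 55.4 CPM in JQ1 (log2 -1.0, SE 0.08, edgeR adjusted p 4.47e-07). OAS3 (-0.88) and the GTPase GBP1 (-1.29) fell. Transcription factors of the pathway went the other way. STAT2 was at 26.6, 26.3 and 27.7 CPM in DMSO and at 31.9, 37.9 and 33.2 CPM in JQ1 (log2 0.35, SE 0.07, edgeR adjusted p 0.00176), and IRF7 rose by 1.47. SAMHD1, a nuclease of the list, rose from 26.4, 23.8 and 26.1 CPM to 44.7, 44.8 and 44.7 CPM (log2 0.81, SE 0.06, edgeR adjusted p 2.49e-07). Divided in this way, after the values were seen, 4 of the 5 signalling and transcription factors were higher and none lower, and of the other 41 genes 3 were higher and 29 lower.

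The interferon-stimulated response element, read here as a pair of TTTC with 2 bases between them, on either strand, was in the 250 bases before the start of 307 of 12629 tested genes with a window (2.43%). It was in 19 of 36 interferon-stimulated genes (52.8%): in 12 of 23 lower members (52.2%), 1 of 5 higher members (20%) and 6 of 8 that were not called (75%). To show where it lies, 4 lower members that hold it within 200 bases of the start are printed with the element in capitals; they were chosen after their values were seen. IFITM1, an antiviral membrane protein, fell by 2.17 on the log2 scale and lies at chr11:313840-314039, plus strand. BST2, which tethers virus particles, fell by 2.17 and lies at chr19:17405631-17405830, minus strand. IFI44 fell by 1.46 and lies at chr1:78649589-78649788, plus strand, and the RNA sensor IFIH1 fell by 1.38 and lies at chr2:162318685-162318884, minus strand (GRCh38.p14, sequences from RefSeq).
IFITM1: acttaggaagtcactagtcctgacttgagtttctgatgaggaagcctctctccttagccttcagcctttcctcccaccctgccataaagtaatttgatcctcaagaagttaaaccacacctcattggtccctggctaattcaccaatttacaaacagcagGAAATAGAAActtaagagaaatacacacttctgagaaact
BST2: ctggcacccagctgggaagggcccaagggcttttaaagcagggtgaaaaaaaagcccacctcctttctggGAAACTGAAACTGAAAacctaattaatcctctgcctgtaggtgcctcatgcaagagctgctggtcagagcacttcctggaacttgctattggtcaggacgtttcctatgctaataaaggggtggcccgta
IFI44: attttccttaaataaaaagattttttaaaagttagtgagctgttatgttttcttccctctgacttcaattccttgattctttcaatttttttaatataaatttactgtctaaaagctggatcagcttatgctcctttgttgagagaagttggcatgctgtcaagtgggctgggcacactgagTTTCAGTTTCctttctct
IFIH1: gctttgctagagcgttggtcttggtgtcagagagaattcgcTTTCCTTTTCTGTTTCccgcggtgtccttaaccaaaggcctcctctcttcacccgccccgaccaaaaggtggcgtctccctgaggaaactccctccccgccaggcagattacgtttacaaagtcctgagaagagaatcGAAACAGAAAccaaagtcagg
IFITM1 and IFI44 each hold 1 match, BST2 holds 2 that overlap, and IFIH1 holds 3.

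**Figure D2:**
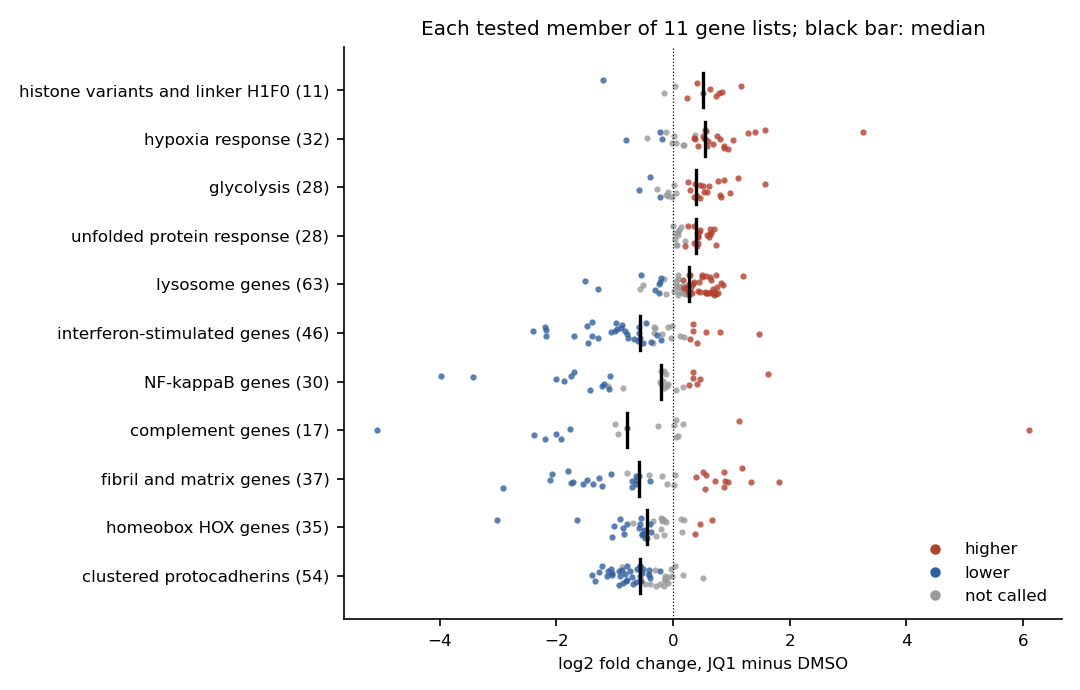
Log2 fold change (JQ1 minus DMSO) of each tested member of 11 gene lists, coloured by call, with the list median as a black bar. Hypoxia, glycolysis, unfolded protein response and lysosome members lie mostly above 0 and the 6 lower lists mostly below it, with members on the other side in each list except the unfolded protein response.

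NF-kappaB is the transcription factor of inflammatory signalling. In its list of 30 tested genes, 11 (36.7%) were lower, each by at least 2-fold, and 6 (20%) were higher. TRAF1, an adaptor of tumour necrosis factor receptors, was at 46.9, 51.3 and 51.5 CPM in DMSO and at 11.9, 14.5 and 10.8 CPM in JQ1 (log2 -2.01, SE 0.11, edgeR adjusted p 8.30e-09). The neutrophil chemokine CXCL8 was at 30, 29.5 and 33.2 CPM in DMSO and at 12.8, 13.7 and 14.5 CPM in JQ1 (log2 -1.18, SE 0.12, edgeR adjusted p 4.02e-06). CXCL1 (-1.86) and the adhesion molecule ICAM1 (-1.21) fell. Of 9 subunits and inhibitors of NF-kappaB, a division made after the values were seen, 3 were higher, none was lower and 6 were not called. The higher ones were the subunit RELA (0.34) and the inhibitors NFKBIE (0.34) and NFKBIB (0.46). The median of the 9 was -0.12, and -0.25 with library totals. With library totals RELA (edgeR adjusted p 0.0842) and NFKBIE (edgeR adjusted p 0.0668) missed the threshold. NFKBIE also missed it with GC and length offsets (edgeR adjusted p 0.0601). RELA did without DMSO replicate 1 (edgeR adjusted p 0.0506), and NFKBIB without JQ1 replicate 2 (edgeR adjusted p 0.0740). Of 12 secreted ligands in the list, 8 were lower and 1 higher. That exception was the cytokine IL11, at 10.2, 11.2 and 11.1 CPM in DMSO and 34.9, 33.6 and 31.9 CPM in JQ1 (log2 1.63, SE 0.14, edgeR adjusted p 5.20e-07). ICAM1 fell further in the knockout (-2.14), and its interaction test gave -0.93 (edgeR adjusted p 0.0149).

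Families of immune mediators also had more lower than higher calls among their tested members. Of 39 tested interleukins and their receptors, of 79 listed, 15 (38.5%) were lower, 2 (5.13%) higher and 22 not called. IL24, a cytokine known from melanoma differentiation, fell from 462, 456 and 491 CPM to 177, 199 and 183 CPM (log2 -1.34, SE 0.07, edgeR adjusted p 5.48e-09). The receptor genes IL7R (-2.87), IL27RA (-1.59) and IL6R (-1.23) fell, and the 2 higher members were IL11 and IL13RA2 (0.83). Of 17 tested chemokines and receptors, of 67 listed, 8 (47.1%) were lower, none higher and 9 not called. Of 17 tested complement genes, of 25 listed, 7 (41.2%) were lower and 2 (11.8%) higher, with a median of -0.78. That median was -0.72 to -0.33 in fits without 1 library of either genotype (weakest without wild-type JQ1 replicate 3). Among members with a mean of at least 1 CPM it was -0.28. Several complement genes are near the filter, and on log2(CPM + 0.5) the list medians were -0.20, -0.41 and -0.41 in the 3 JQ1 libraries. The protease C1R fell from 15.2, 14.6 and 14 CPM to 2.89, 2.78 and 2.72 CPM (log2 -2.38, SE 0.11, edgeR adjusted p 1.27e-09), and the inhibitors CFI (-2.19) and A2M (-1.92) and the central component C3 (-2.01) fell. CD59, which blocks the membrane attack complex, rose from 242, 238 and 248 CPM to 524, 536 and 528 CPM (log2 1.13, SE 0.05, edgeR adjusted p 1.47e-09). The other higher member, the chaperone CLU, chosen after its values were seen, was at 0.119, 0 and 0 CPM in DMSO and at 3.45, 2.86 and 2.96 CPM in JQ1. Antigen presentation was divided: of 19 class I genes 6 were higher, among them the chaperone CALR (0.41), and 5 lower, among them the immunoproteasome subunit PSMB8 (-0.76), and 4 and 5 with library totals.

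**Figure D3:**
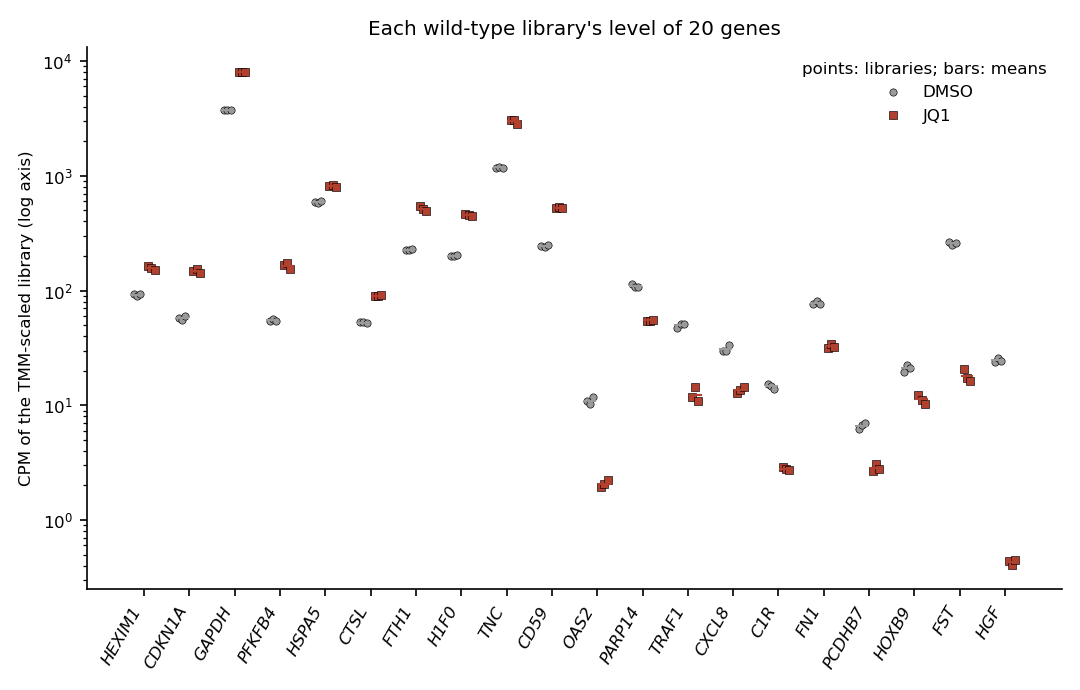
CPM (TMM-scaled, log axis) of 20 genes in each wild-type library, DMSO as circles and JQ1 as squares, with group means as bars. The 20 genes were picked from named genes chosen for no overlap between groups, so their separation was set by the choice. The JQ1 libraries lie above the DMSO libraries for HEXIM1 to CD59 and below them for OAS2 to HGF.

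Extracellular matrix genes were called in both directions. Of 37 tested fibril and matrix genes, 12 (32.4%) were higher and 19 (51.4%) lower, with a median of -0.59. TNC, the anti-adhesive glycoprotein tenascin C, rose from 1179, 1203 and 1166 CPM to 3073, 3050.4 and 2807 CPM (log2 1.33, SE 0.07, edgeR adjusted p 5.09e-09), and the cross-linking enzyme LOXL2 (1.18) and thrombospondin THBS1 (0.87) rose. Fibronectin, FN1, fell from 76.3, 81.2 and 76 CPM to 31.8, 33.9 and 31.9 CPM (log2 -1.26, SE 0.08, edgeR adjusted p 4.19e-08), and EMILIN1 (-1.80), THBS2 (-2.08) and the fibril-associated collagen COL12A1 (-1.21) fell. Of 34 collagens 4 (11.8%) were higher and 13 (38.2%) lower, including COL5A2 (-0.71). The protease inhibitors TIMP1 (1.14) and TIMP3 (-0.98) moved apart. So did the integrins, of which 8 of 17 were higher and 7 lower, or 5 and 8 with library totals: ITGB3 (1.00) and ITGA3 (1.15) rose, while ITGA10, at 35.4, 39.6 and 34.7 CPM in DMSO and 3.23, 2.08 and 2.51 CPM in JQ1, fell 13.9-fold (log2 -3.80, SE 0.12, edgeR adjusted p 5.18e-11). The summed fibroblast markers given above moved with the lower matrix genes. Of 5 tested, 4 were lower, each by at least 2-fold, and 1 was higher, with a median of -1.48. PDGFRB (-1.41) was among the lower ones, PDGFRA (0.64) was the higher one, and the part of these markers in the list was not tested.

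The list of mesenchymal and dedifferentiation genes had more higher than lower members, with 13 (41.9%) of 31 higher and 8 (25.8%) lower, and 11 and 10 with library totals. Vimentin, VIM, was at 2437, 2471 and 2482 CPM in DMSO and at 4317, 4450.5 and 4223 CPM in JQ1 (log2 0.81, SE 0.05, edgeR adjusted p 2.90e-08), and the receptor kinase AXL, a marker of invasive melanoma cells, rose by 0.92. TGFBI rose by 1.24 in wild type and by 0.43 in the knockout, with an interaction of -0.81 (edgeR adjusted p 0.0208). The transcription factor ZEB2 fell by 0.44 on the log2 scale. Of 24 tested melanocyte and pigment genes 5 (20.8%) were higher and 4 (16.7%) lower, close to the background, with 2 and 9 under library totals. SOX10 was at 428, 442 and 439.9 CPM in DMSO and at 599, 581 and 509 CPM in JQ1 (log2 0.37, SE 0.11, edgeR adjusted p 0.0189), a call lost with library totals (edgeR adjusted p 0.0925) and without DMSO replicate 1, JQ1 replicate 1 or JQ1 replicate 2 (edgeR adjusted p 0.0513 to 0.0760). MITF had a log2 fold change of -0.13 (SE 0.08, edgeR adjusted p 0.22), and the neural crest factor PAX3 fell by 0.31 on the log2 scale, a call lost in the authors' signal (-0.21, limma adjusted p 0.12).

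The largest fall among genes of at least 5 CPM was that of a growth factor. HGF, the ligand of the receptor MET, was at 23.9, 25.6 and 24.5 CPM in DMSO and at 0.44, 0.408 and 0.444 CPM in JQ1, a 56.6-fold loss (log2 -5.82, SE 0.16, edgeR adjusted p 9.55e-12). MET itself rose by 0.41. Of 43 tested receptor tyrosine kinases and ligands, 14 (32.6%) were higher and 15 (34.9%) lower, and 13 and 17 with library totals. Among all tested protein-coding genes 23.1% were higher and 19.2% lower. The ligands TGFA (0.67) and HBEGF (1.39) and the receptor ROR1 (1.03) rose, and FGF1 (-1.62) and the collagen receptor DDR2 (-0.71) fell. FST, which encodes the activin antagonist follistatin, fell from 263, 250 and 262 CPM to 20.5, 17.3 and 16.4 CPM (log2 -3.84, SE 0.08, edgeR adjusted p 5.75e-13), and INHBA, which encodes the activin subunit it binds, fell by 0.67 on the log2 scale. In the knockout FST fell by 2.98, and the interaction was 0.86 (edgeR adjusted p 0.00838). In the Notch list, 6 of 25 genes were higher and 4 lower; the ligand JAG1 (1.73) and the target HES1 (1.18) rose, and the coactivators MAML2 (-0.45) and MAML3 (-0.36) fell.

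The other largest changes were spread over unrelated families. The T-box gene TBX10 was at 1.28, 0.779 and 0.989 CPM in DMSO and at 16.1, 14.4 and 11.6 CPM in JQ1, a 13.6-fold rise (log2 3.77, SE 0.22, edgeR adjusted p 1.42e-08). The WNT ligand gene WNT9A rose by 3.17, CEND1 by 2.22, the urocortin gene UCN2 by 2.19, the pentraxin NPTX2 by 2.02, EFR3B by 1.99 and NXN by 1.93. The mitochondrial tRNA gene MT-TS1 (2.09) and the clone-named AC090358.1 (1.97) complete the 10 largest rises with ANGPTL4. On the other side, the lipid transporter gene ABCA6 fell by 5.19 on the log2 scale, LINC00326 by 4.65, the serpin SERPINF1 by 4.19, RASL12 by 4.03, TEX41 by 3.72, MPP4 by 3.61 and the purine receptor P2RX5 by 3.53. No overlap between groups and a mean of at least 5 CPM in the higher group were conditions for choosing these 20 genes, and are not results. An example of the long intergenic RNAs among them, LINC00326 went from 18.4, 17 and 18.7 CPM to 0.691, 0.705 and 0.74 CPM.

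Protocadherin and HOX genes, which lie in clusters along the chromosomes, had more lower than higher calls. Clustered protocadherins encode neuronal recognition proteins whose variable exons each have a promoter of their own. All 54 were tested, 35 (64.8%) were lower and none higher, with a median of -0.57 and JQ1 library medians of -0.47, -0.52 and -0.50. PCDHB7 was at 6.17, 6.73 and 7.01 CPM in DMSO and at 2.67, 3.08 and 2.78 CPM in JQ1 (log2 -1.22, SE 0.11, edgeR adjusted p 1.27e-06), and PCDHB6 (-0.85), PCDHB2 (-0.78) and PCDHB16 (-0.57) fell. By subcluster, 13 of 16 beta genes and 17 of 22 gamma genes were lower, and 5 of 16 alpha genes, with medians of -0.69, -0.77 and -0.14 in that order; the difference between subclusters was not tested. Alpha and gamma genes share constant exons within their subcluster, so reads can be split among them, and these members are uncertain; the beta genes have no such exons. Cadherins outside the clusters were divided, with 10 of 34 higher, among them FAT1 (0.71), and 14 lower, among them FAT3 (-1.29).

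HOX genes encode homeodomain factors of the body axis. Of 35 tested of 39, 19 (54.3%) were lower and 3 (8.57%) higher, with a median of -0.44 and JQ1 library medians of -0.37, -0.36 and -0.45. HOXB9 fell from 19.6, 22.3 and 21.2 CPM to 12.4, 11.2 and 10.2 CPM (log2 -0.90, SE 0.10, edgeR adjusted p 5.63e-06), and HOXD13 (-1.04), HOXC11 (-1.01) and HOXB8 (-0.85) fell. The medians of the 4 clusters were -0.36 for HOXA, -0.53 for HOXB, -0.21 for HOXC and -0.50 for HOXD. Higher members included HOXC13 (0.46) and HOXA13 (0.67), the latter chosen after its values were seen. In the knockout no HOX gene was higher and 27 were lower, but none of the 35 passed the interaction test between genotypes. Of 28 forkhead genes 10 (35.7%) were lower and 1 higher. Of 520 ZNF, ZSCAN and ZKSCAN genes 90 (17.3%) were lower, near the 16.2% of all genes, and 42 (8.08%) higher, below the 16.9% of all genes. Among ion channels, 16 (29.1%) of 55 potassium channel genes were lower and 5 (9.09%) higher, with KCNT2 (-1.21) and KCNK5 (0.77) as examples.

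Ribosomal protein genes changed by small amounts. Of 79 tested cytosolic ribosomal protein genes, 28 (35.4%) were lower and 10 (12.7%) higher, with a median of -0.09, and with library totals 50 were lower and 4 higher. RPL21 was at 451, 494 and 491 CPM in DMSO and at 287, 294 and 296 CPM in JQ1 (log2 -0.71, SE 0.08, edgeR adjusted p 6.03e-06), and RPL6 (-0.41) and RPS27A (-0.46) fell. The stalk protein RPLP0 rose from 2015, 1969.7 and 2051 CPM to 2466, 2603 and 2422 CPM (log2 0.31, SE 0.06, edgeR adjusted p 0.00100). The calls came from both subunits, with 17 of 47 large and 11 of 32 small subunit genes lower. Many pseudogenes copy these genes, so single members are uncertain. Ribosome biogenesis genes had 18 (28.6%) of 63 lower and 8 higher. Among snoRNA host genes 6 (27.3%) of 22 were lower, led by GAS5, which fell from 260.3, 260 and 262 CPM to 149.8, 166 and 166 CPM (log2 -0.70, SE 0.05, edgeR adjusted p 2.50e-07), and 1 was higher.

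Gene types differed in their calls. Of 14149 tested protein-coding genes, 3274 (23.1%) were higher and 2715 (19.2%) lower, with a median of 0.01; with library totals 2053 were higher and 4130 lower, and the median was -0.12. Of 1936 tested long intergenic RNAs, 74 (3.82%) were higher and 305 (15.8%) lower, with a median of -0.23. The lower share was near the 16.2% of all tested genes, and the higher share was below their 16.9%. Of the 1936, 152 were called at least 2-fold lower, against 1084 (5%) of all 21698 tested genes. Antisense genes had 97 (4.9%) of 1980 higher and 159 (8.03%) lower; whether the counting used the strand is not given in the sources used here, so these cannot be told from their partners. The intergenic RNA LINC01419 rose from 95.9, 96.3 and 96.9 CPM to 324, 352 and 357 CPM (log2 1.84, SE 0.08, edgeR adjusted p 1.42e-09). Of 58 small nuclear RNA genes 10 (17.2%) were higher and 1 lower, with a median of 0.07, and -0.06 with library totals. Of 119 tested small nucleolar RNA genes, 4 (3.36%) were higher and 8 (6.72%) lower, with a median of -0.15. The nucleolar RNA SNORD3B-2, a copy of U3, rose by 1.25. Reads can be split among such copies, so this member is uncertain. Gene types were not compared at matched levels. Of 5 equal classes of all tested genes by DMSO level, the lowest, up to 0.658 CPM, had 3.48% higher and 5.44% lower, and the next class 5.05% and 16%.

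Large losses were more frequent in the lower classes of expression than in the highest. With protein-coding genes in 5 equal classes by DMSO level, 12.6% of the lowest class (median 0.861 CPM) and 8.06% of the next were called at least 2-fold lower, against 0.989% of the highest class (median 118 CPM). In 10 classes the peak was the second, at 15.8%, with 9.40% in the lowest, 10.4% in the third and 0.919% in the highest. Over all tested genes the peak of 5 classes was the second, at 9.73%, with 5.25% in the lowest and 6.71% in the third, and the lowest of 10 classes had 2.35% lower and 3.82% higher by at least 2-fold. The shares called at least 2-fold higher ran from 3.60% in the lowest to 0.601% in the highest class. The classes were cut on the DMSO level, which is also the base of the fold change. The lowest class starts at 0 CPM in DMSO, so it holds genes that passed the count filter through libraries of other groups. Fold changes of weak genes are also the least precise. The part of this selection and of this imprecision in the trend was not tested. GC content went with the direction: in the lowest of 5 classes of transcript GC (median 38.5%) 11.4% of protein-coding genes were higher and 22.7% lower, and in the highest (median 61.5%) 31.1% were higher and 15.2% lower. Offsets for GC and length remove that trend by construction, and left 4552 genes higher and 3875 lower.

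Promoter composition differed between the classes. For 11472 tested protein-coding genes, the window from 250 bases before to 50 after the RefSeq start was read for CpG content, as the ratio of observed to expected CG pairs; a ratio of 0.6 or more is usual for CpG islands. Of 544 genes at least 2-fold lower, 44.7% reached that ratio (median ratio 0.53). The shares were 79.3% of 1603 genes lower by less, 77.7% of 6601 not called, 89.4% of 2554 higher by less than 2-fold and 83.5% of 170 at least 2-fold higher. Among genes of 5 to 50 CPM in DMSO, where the level is more alike, the share was 47.4% of 190 genes at least 2-fold lower and 86.1% of 3018 not called. A TATA box (TATAAA, beginning 20 to 40 bases before the start, coding strand) was in 3.31% of genes at least 2-fold lower, 5.29% of those at least 2-fold higher and 1.94% of all windows. These shares describe the windows and were not tested.

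**Figure D4:**
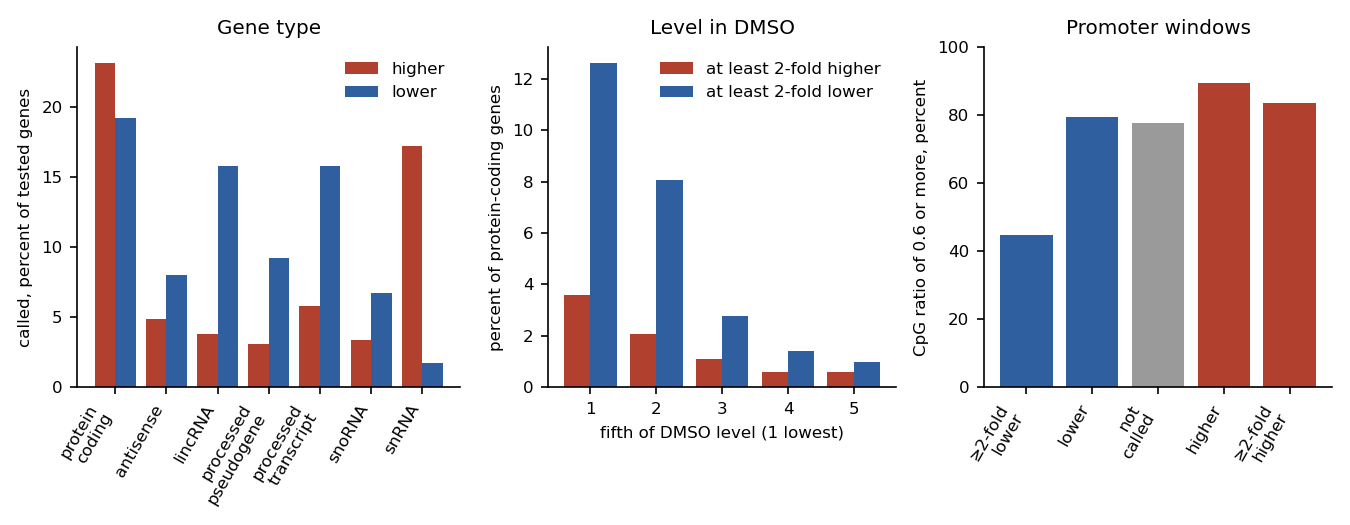
Left, percent of tested genes called higher or lower by gene type; middle, percent of protein-coding genes called at least 2-fold higher or lower in 5 classes of their DMSO level; right, percent of promoter windows with a CpG ratio of at least 0.6 by class of protein-coding gene. Of the long intergenic RNAs, 15.8% were called lower and 3.82% higher, against 16.2% and 16.9% of all tested genes. Of the genes at least 2-fold lower, 44.7% reached the CpG ratio.

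The same drug contrast in the knockout, which shares no library with the wild-type contrast, gave list medians mostly of the same sign. There 3616 genes (16.7%) were higher and 3856 (17.8%) lower. Of 79 lists and families with at least 10 tested genes, 64 had medians of the same sign in both genotypes, and Pearson's r between the medians was 0.92, a description over lists that share some genes. The hypoxia median was 0.55 in wild type and 0.54 in the knockout, that of the unfolded protein response 0.39 and 0.33, of interferon-stimulated genes -0.57 and -0.66, and of clustered protocadherins -0.57 and -0.66. The division of the interferon list also appeared there, with 4 of 5 signalling and transcription factors higher and 30 of the other 41 genes lower. Fibril and matrix genes had a median of -0.59 in wild type and -0.22 in the knockout, and keratins of -1.28 and -2.19; only 11 keratins were tested (wild-type median -0.02 among those with a mean of at least 1 CPM), and the difference of these medians was not tested. The interaction test called 29 genes (0.134% of all tested), 7 with a higher (0.0323%) and 22 with a lower value in the knockout (0.101%), among them KRT80 (-1.21 in wild type, -2.19 in the knockout, edgeR adjusted p of the difference 0.00838), C1R (-2.38 and -3.31, 0.0442) and LINC01419 (1.84 and 1.10, 0.0230). Of these, KRT80 was called under all 21 alternatives that gave this test, LINC01419 under 10 and C1R under 7.

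**Figure D5:**
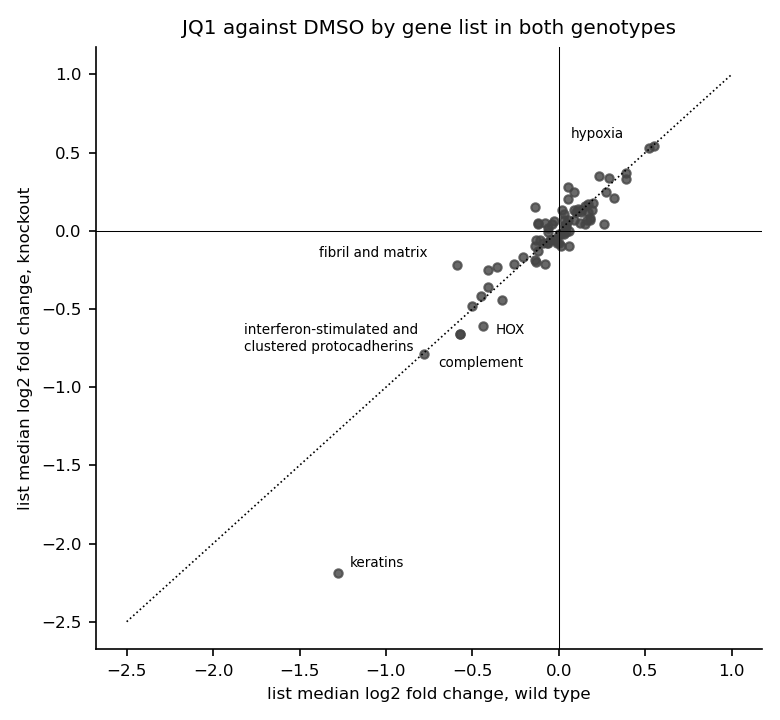
Median log2 fold change with JQ1 of 79 gene lists and families in wild type (x axis) and in the MAPKAPK2 knockout (y axis); each point is a list and the dotted line marks equal values. Most points lie near the line, with keratins and the fibril and matrix genes farther from it.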

How the data were processed

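Total RNA depleted of ribosomal RNA was sequenced from 12 libraries in 4 groups of 3. The authors deposited estimated counts per gene symbol, not whole numbers, with Trim Galore, cutadapt, FastQC, MultiQC, kallisto, DESeq2 and GRCh38.p10 named in the submitters' processing notes; their roles, the annotation and strand use are not given in the sources used here. The authors also deposited a normalized signal per gene, whose scaling is not given in the sources used here; it served as an alternative only. Raw counts had been planned for, so these values were rounded first. edgeR 4.0.16 (R 4.3.3) fitted all 12 libraries by group (filterByExpr, TMM, quasi-likelihood test, Benjamini-Hochberg adjustment over 21698 of 56609 symbols, threshold 0.05). A test on simulated counts came first, with changes placed only in genes of at least 1 CPM in wild-type DMSO. Of 67, 67 and 66 genes changed by 0.5, 1 and 2 (log2), 55.2%, 86.6% and 100% were recovered, with 10 false calls. It changed far fewer genes than were called in the data, and its recovery does not apply to weaker genes. CPM use TMM-scaled library sizes except for the marker check; library totals ran from 25316899 to 34594295. Library medians of a list use log2(CPM + 0.5). Gene types, GC and length came from GENCODE 29 by symbol, and promoter windows (GRCh38.p14) from RefSeq for 12629 tested genes; of 6074 minus-strand windows that could be compared, 4815 read along a transcript. Alternatives used DESeq2 1.42.0, limma 3.58.1 on log2(signal + 1), other scalings, filters, thresholds and left-out libraries. Members and gene lists were chosen with earlier results of these data known. Named genes are 12 set genes, the 10 largest rises and falls with no overlap and at least 5 CPM in the higher group, and up to 4 per list and direction with the smallest adjusted p on the same conditions; others are said to be chosen after their values were seen. Some genes that this rule names are not reported here, though they remain in the fits and list counts.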

Additional observations from a re-analysis of the deposited data

Results flagged for a closer look

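For 8 of the genes described, the response to JQ1 differed between the genotypes by the interaction test, given here as the knockout response minus the wild-type response on the log2 scale. It was -0.98 for KRT80 and 0.86 for FST, and both were called under all 21 alternatives that gave this test. It was -0.93 for ICAM1, called under 18 of them, and -0.81 for TGFBI, called under 14. SLC7A11, at -0.93, was called under 12 and COX6C, at 0.76, under 11. LINC01419, at -0.74, was called under 10 and C1R, at -0.93, under 7. COX6C is the only member of these 8 whose response had opposite signs, -0.41 in wild type and 0.36 in the knockout. The labels do not say whether the knockout cells were 1 clone, so genotype and clone cannot be told apart.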

How the results depend on the processing

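The count of genes called in wild type stayed within 1.5 times of 7187 under the alternatives tried, except at an adjusted p of 0.01, which left 4781. Leaving out 1 library gave 5647 to 8455 calls in wild type, 6286 to 7481 in the knockout and 8 to 88 for the difference between genotypes. That last count, 29, fell by more than 1.5 times without 1 of the DMSO libraries (knockout replicates 1 to 3 giving 18, 13 and 8, wild-type replicates 19, 12 and 11) or of the wild-type JQ1 libraries (8, 9 and 19), and was 88 without knockout JQ1 replicate 3. It was 154 with the DESeq2 test, 155 with GC and length offsets, 236 with no filter on low counts and 6 at an adjusted p of 0.01; the cause was not tested. Same-numbered wild-type libraries did not deviate together over all tested genes (correlations -0.00109, -0.0292 and -0.00446). With 3 libraries per group and many weak genes, these values cannot decide whether the numbers mark a shared day or culture. With the replicate block 6789 genes were called in wild type (3496 higher, 3293 lower), 7136 in the knockout and 21 for the difference. Of 213 genes named, 196 kept direction and call under every alternative, and 13 of the 206 called lost the call under at least 1. Of 79 lists with at least 10 tested genes, the median changed sign in 21 with library totals, in 9 with GC and length offsets and in 0 with DESeq2 size factors. With library totals these included DNA replication (-0.10), G1 cyclins (-0.04), p53 targets (-0.01), the BCL2 family (-0.10), ATF4 genes (-0.04), cholesterol genes (-0.07), receptor tyrosine kinases (-0.10) and class I presentation (-0.12). It also changed for protein-coding genes (-0.12) and small nuclear RNAs (-0.06) with library totals, small nuclear RNAs (-0.02) with a mean of at least 1 CPM, the BCL2 family (-0.02), receptor tyrosine kinases (-0.04), class I presentation (-0.03) and melanocyte genes (0.03) with GC and length offsets, and the MYC network with these offsets (0.08), in the authors' signal (0.04) and over left-out libraries (-0.02 to 0.18). With 10 classes in place of 5, 9.40%, 15.8% and 10.4% of protein-coding genes in the lowest 3 classes by DMSO level and 0.919% in the highest were at least 2-fold lower. Depth limits the weakest genes: in the lowest of 5 classes of all genes, the median level was 0.402 CPM.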
